A study of Oryctolagus cuniculus with 12 samples.

Results

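The immediate-early response genes were followed through normal skin and hypertrophic scar (HS) of the rabbit ear, with or without local treatment with 5-fluorouracil (5-Fu), an antimetabolite. A list of 10 genes was looked up by gene symbol: FOS, FOSB, JUN, JUNB, EGR1, EGR3, ATF3, IER2, DUSP1 and ZFP36. Of these, 8 were found by symbol among the 29587 genes of the expression table, and JUNB and IER2 were not matched by symbol. All 8 had a mean FPKM (fragments on a gene relative to its length and to library size) of at least 1 over the 12 samples, and so were among the 13287 genes tested. A row without a symbol carried a description that matched IER2, and it is given separately.

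Full thickness ear tissue of wild-type female rabbits, 10 to 12 weeks old when obtained, was profiled by bulk RNA-seq on day 43, with 3 samples in each of 4 groups and 3 rabbits per group. NS was skin of rabbits that were neither wounded nor treated. HS was scar that formed after skin excision and received no treatment. In the drug-loaded MNs group, each scar received 1 patch of separating microneedles carrying a 5-Fu prodrug in a gelatin methacryloyl matrix on days 22, 29 and 36. In the 5-Fu injection group, each scar was injected with 120 μg of 5-Fu in 0.1 mL on the same days, so both treated groups were sampled 1 week after the last dose. A rabbit ear carried several scars, and the labels do not tie a sample to a rabbit, so p-values measure the spread between these samples.

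Immediate-early genes are transcribed within minutes of a stimulus without the need for new protein. Growth factors, cytokines, stretch, heat and lack of oxygen act through MAP kinases on factors that are already present, such as SRF with its ELK partners and CREB, and the transcripts are then lost again within hours because they are short-lived. In skin they respond to wounding, and they are also known to respond to the cutting and dissociation of tissue, so the time between excision and freezing can enter their level. That time is not given in the sources used here, and its part in the values below was not tested.

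Reads on genes, counted back from the FPKM, ranged from 10521472 to 14043667 per sample. Fibroblast markers (5 of 6 found) summed to 2391 to 3365 FPKM in NS and 37270 to 48610 FPKM in HS. Keratinocyte markers (4 of 7 found) were present in all samples, at summed levels of 1266 to 8424 FPKM. In such a bulk measurement, fewer cells of a type and less RNA per cell cannot be told apart. One 5-Fu injection sample, replicate 3, had 10.7% of its reads on mitochondrial genes, compared with 3.20% to 7.62% in the other 11 samples.

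None of the 8 genes was called differentially expressed in any comparison. A call required a log2 fold change beyond 1 in either direction with a limma p, adjusted by the Benjamini-Hochberg method, under 0.05. This rule called 5% of all tested genes between HS and NS, 0.00753% between drug-loaded MNs and HS, and 2.29% between 5-Fu injection and HS. It called 0% of all genes between the drug-loaded MNs and the 5-Fu injection groups, 0.873% between drug-loaded MNs and NS, and 0.00753% between 5-Fu injection and NS. With shares this small, 0 calls among 8 genes was close to the background in every comparison. At the same thresholds, the study's DESeq2 test reported many more genes in drug-loaded MNs against HS and between the treated groups. The study also listed FOS among hub genes of its network of differentially expressed genes, in some of its rankings. The present fit called almost no gene in those comparisons, so 0 calls there say little about a single gene.

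Without adjustment for multiple testing, the limma p was under 0.05 for 1 of the 8 genes between HS and NS (ATF3), against 23.4% of all genes. It was under 0.05 for 1 gene between drug-loaded MNs and HS (FOS), against 8.9% of all genes, and for 1 between 5-Fu injection and HS (DUSP1), against 26%. Between the 2 treated groups the single gene was EGR3, against 15.1% of all genes. The counts were 0 between drug-loaded MNs and NS and 0 between 5-Fu injection and NS, against 12.9% and 14.9%. The immediate-early genes therefore passed no more often than their background share in HS against NS and in 5-Fu injection against HS.

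Separation of the samples gave the same picture. Between HS and NS, the 3 samples of each group did not overlap for 3 of the 8 genes (FOS, EGR1 and ATF3, all lower in HS), against 33.3% of all tested genes. The count was 1 of 8 between drug-loaded MNs and HS (FOS), against 18.9%, and 1 of 8 between 5-Fu injection and HS (again FOS), against 30.3%. It was 1 of 8 between the drug-loaded MNs and the 5-Fu injection groups (EGR3), against 17.1%. ATF3 alone did not overlap between drug-loaded MNs and NS, against 20.6%, and no gene between 5-Fu injection and NS, against 18.8%. The moderated F test over the 4 groups called 0 of the 8 genes, against 3.54% of all genes, and gave an unadjusted p under 0.05 for ATF3 alone, against 23.7%.

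**Figure D1:**
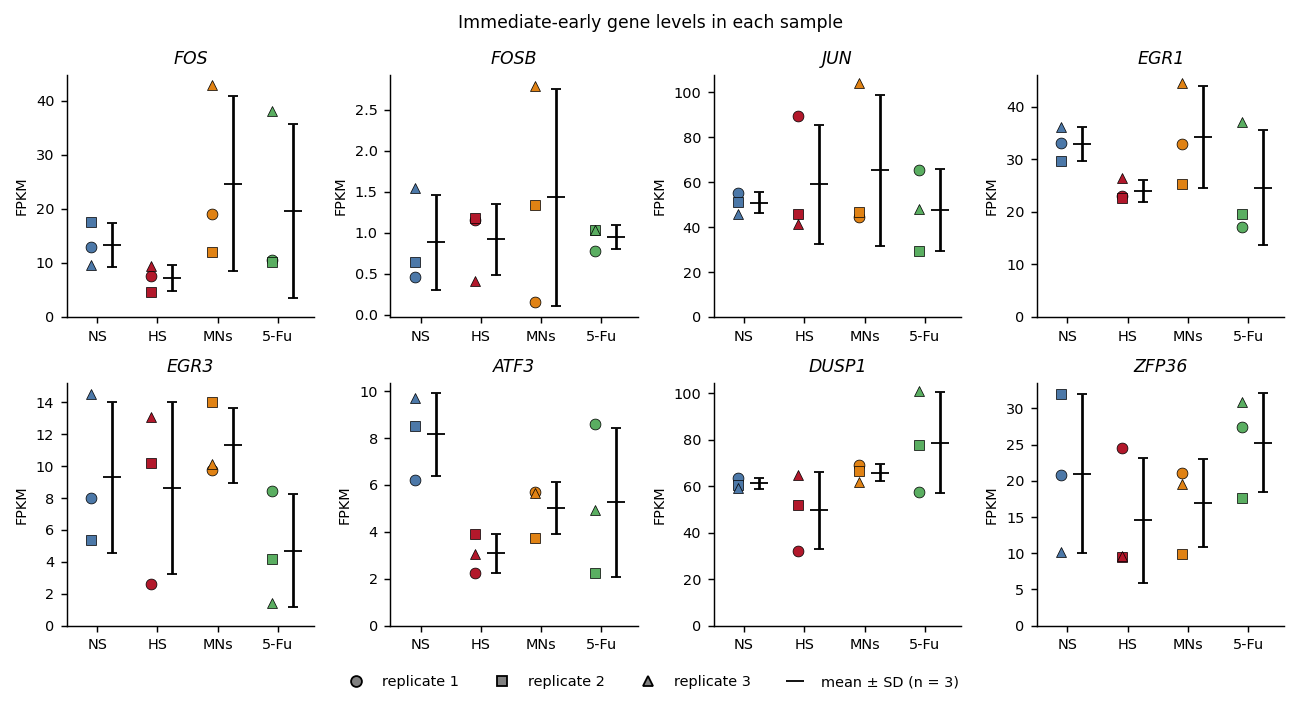
FPKM of each of the 8 immediate-early genes (vertical axis, linear, separate scale per gene) in the 12 samples by group, with a marker shape per replicate and the mean ± SD (n = 3) beside the points. FOS was lowest in the 3 HS samples and highest in replicate 3 of drug-loaded MNs (42.9 FPKM) and of 5-Fu injection (38.1 FPKM).

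FOS, FOSB and JUN encode subunits of AP-1, the dimeric transcription factor that switches on genes of proliferation and matrix remodelling. FOS (ENSOCUG00000021506, chromosome 20, 29860717 to 29863277, minus strand, in the coordinates of the table, whose genome build is not given in the sources used here) was at 13.0, 17.6 and 9.53 FPKM in the NS samples. It was at 7.61, 4.69 and 9.34 FPKM in HS, at 19.1, 12.0 and 42.9 FPKM in drug-loaded MNs and at 10.5, 10.2 and 38.1 FPKM in 5-Fu injection. Every HS sample was below every sample of the other groups, although the highest HS sample and the lowest NS sample nearly met. Within both treated groups, replicate 3 stood far above the other samples, which were near or within the NS range.

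The fitted FOS level was lower in HS than in NS by a log2 fold change of -0.81 (SE 0.53, 95% confidence interval -1.97 to 0.35, limma adjusted p = 0.394). It was higher in drug-loaded MNs than in HS by 1.50 (SE 0.53, 0.34 to 2.66, adjusted p = 0.447 in limma) and higher in 5-Fu injection than in HS by 1.10 (SE 0.53, -0.05 to 2.26, adjusted p = 0.212 in limma). Of the 8 genes, FOS had the widest separation from HS in both treated groups, and none of these differences passed the adjusted threshold. With replicate 3 of drug-loaded MNs and replicate 3 of 5-Fu injection both left out, the differences from HS were smaller, at 1.02 and 0.51, and kept their sign. Between the treated groups, FOS was higher in drug-loaded MNs by 0.39 (-0.76 to 1.55), and this turned to -0.09 when replicate 3 of drug-loaded MNs was left out.

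FOSB (ENSOCUG00000023019, on an unplaced scaffold) was the least abundant, with 4 to 65 reads per sample. It was at 0.464, 0.642 and 1.54 FPKM in NS, at 1.16, 1.18 and 0.417 FPKM in HS, at 0.155, 1.34 and 2.80 FPKM in drug-loaded MNs and at 0.780, 1.04 and 1.04 FPKM in 5-Fu injection. The drug-loaded MNs group held both the lowest and the highest sample of the series, an 18.1-fold range within 1 group, and all groups overlapped. No FOSB difference exceeded its error: the fitted differences in the 6 comparisons lay between 0.04 and 0.25, each with an SE of 0.40.

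JUN (ENSOCUG00000001212, chromosome 13, 107996928 to 108032966, plus strand) was, with DUSP1, the most abundant. Its level was 55.2, 51.3 and 46.0 FPKM in NS, 89.7, 45.9 and 41.5 FPKM in HS, 44.7, 46.9 and 104 FPKM in drug-loaded MNs and 65.7, 29.3 and 47.9 FPKM in 5-Fu injection. A single sample stood well above the others in HS (replicate 1) and in drug-loaded MNs (replicate 3), and all groups overlapped. The fitted differences were small: 0.13 in HS against NS (-0.72 to 0.97), 0.12 in drug-loaded MNs against HS (-0.73 to 0.96) and -0.29 in 5-Fu injection against HS (-1.14 to 0.55). JUN is usually a gene of a single exon, whereas the table gave it a span of 36039 bases for a gene length of 1578 bases, so its gene model is uncertain.

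EGR1 and EGR3 encode zinc finger transcription factors, of which EGR1 is known in fibroblasts as a mediator of TGF-β driven collagen expression. EGR1 (ENSOCUG00000008439, chromosome 3, 20738524 to 20741362, plus strand) was at 33.1, 29.6 and 36.1 FPKM in NS, at 23.0, 22.5 and 26.4 FPKM in HS, at 32.9, 25.3 and 44.6 FPKM in drug-loaded MNs and at 17.1, 19.6 and 37.1 FPKM in 5-Fu injection. All HS samples were below all NS samples, and the NS and HS groups were tight. The drug-loaded MNs group ranged from the HS level to above NS, and 5-Fu injection divided into replicates 1 and 2 below HS and replicate 3 above NS.

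EGR1 was lower in HS than in NS by a log2 fold change of -0.44 (SE 0.27, -1.03 to 0.15, adjusted p = 0.358 in limma). It was higher in drug-loaded MNs than in HS by 0.46 (-0.12 to 1.05, adjusted p = 0.648) and near HS in 5-Fu injection (-0.04, -0.63 to 0.55, adjusted p = 0.94 in limma). The largest of these differences was thus less than 2 SE of the fit.

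EGR3 (ENSOCUG00000000194, on an unplaced scaffold) was at 8.02, 5.36 and 14.5 FPKM in NS, at 2.63, 10.2 and 13.1 FPKM in HS, at 9.75, 14.0 and 10.1 FPKM in drug-loaded MNs and at 8.48, 4.19 and 1.43 FPKM in 5-Fu injection. Every 5-Fu injection sample was below every drug-loaded MNs sample, while NS and HS spanned both. The fitted difference between the drug-loaded MNs and the 5-Fu injection groups was 1.31 (SE 0.57, 0.06 to 2.55, adjusted p = 0.318 in limma), and ranged from 0.79 without replicate 3 of 5-Fu injection to 1.78 without replicate 1. EGR3 moved apart from EGR1 and FOS: in replicate 3 of 5-Fu injection, where FOS and EGR1 were high, EGR3 had its lowest value of the series, which rested on 20 reads.

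ATF3 encodes a stress-induced bZIP factor that can dimerise with JUN proteins and often represses its targets. ATF3 (ENSOCUG00000017424, chromosome 16, 60423719 to 60431457, minus strand) was at 6.23, 8.53 and 9.73 FPKM in NS and at 2.27, 3.92 and 3.07 FPKM in HS. It was at 5.69, 3.73 and 5.64 FPKM in drug-loaded MNs and at 8.58, 2.26 and 4.93 FPKM in 5-Fu injection. HS lay wholly below NS, drug-loaded MNs lay between them with 1 sample inside the HS range, and 5-Fu injection spread over the whole range.

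The ATF3 mean was 8.16 ± 1.78 FPKM (SD, n = 3) in NS and 3.09 ± 0.827 FPKM (SD, n = 3) in HS. The log2 fold change of -1.17 (SE 0.34, -1.92 to -0.41) was the nearest of all member differences to the threshold, with an adjusted p of 0.0661 in limma. The adjusted p ranged from 0.0296 to 0.193 over the alternative settings, and ATF3 was called in HS against NS when FPKM were rescaled to the same total (-1.25, adjusted p = 0.0433) and when only these groups entered limma (adjusted p = 0.0296). One of the 8 genes was also called in HS against NS when replicate 1 or replicate 2 of 5-Fu injection was left out of the limma fit. Against HS, ATF3 was higher by 0.56 in drug-loaded MNs (-0.20 to 1.32) and by 0.50 in 5-Fu injection (-0.26 to 1.26), with adjusted p of 0.664 and 0.381 in limma. The difference between 5-Fu injection and HS fell to 0.13 without replicate 1 of 5-Fu injection and rose to 0.90 without replicate 2.

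DUSP1 and ZFP36 belong to the feedback arm of the response. DUSP1, a phosphatase that inactivates MAP kinases (ENSOCUG00000007999, chromosome 3, 53838491 to 53841486, minus strand), was at 63.7, 60.6 and 59.2 FPKM in NS, at 32.0, 52.1 and 65.0 FPKM in HS, at 69.2, 66.4 and 62.0 FPKM in drug-loaded MNs and at 57.6, 77.7 and 101 FPKM in 5-Fu injection. NS and drug-loaded MNs were tight and close to each other, whereas HS reached lower and 5-Fu injection higher, and HS and 5-Fu injection overlapped. DUSP1 was higher in 5-Fu injection than in HS by 0.67 (SE 0.25, 0.13 to 1.22, adjusted p = 0.121 in limma) and in drug-loaded MNs than in HS by 0.46 (-0.09 to 1.00, adjusted p = 0.627 in limma). Without HS replicate 1, its lowest sample, these differences were 0.39 and 0.17.

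ZFP36 encodes tristetraprolin, which binds AU-rich elements and hastens the decay of cytokine and immediate-early transcripts. ZFP36 (ENSOCUG00000003400, chromosome 5, 557497 to 559768, minus strand) was at 20.8, 32.0 and 10.2 FPKM in NS, at 24.5, 9.48 and 9.62 FPKM in HS, at 21.2, 9.93 and 19.6 FPKM in drug-loaded MNs and at 27.4, 17.6 and 30.8 FPKM in 5-Fu injection. All groups overlapped, and values near 10 FPKM occurred in NS, HS and drug-loaded MNs alike. The difference between 5-Fu injection and HS was 0.86 (SE 0.46, -0.14 to 1.86, adjusted p = 0.258 in limma). Neither feedback gene separated the HS from the NS samples.

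The row described as IER2 (ENSOCUG00000026036), a nuclear protein of the same class, was matched after the descriptions had been read. Its level ranged from 39.3 to 76.5 FPKM, with group means from 55.5 FPKM in HS to 61.8 FPKM in NS. Its groups all overlapped, and the largest of its 6 fitted differences in size was -0.19 in HS against NS (-0.73 to 0.35).

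By direction alone, 2 of the 8 genes had a higher fitted level in HS than in NS, with a median log2 fold change of -0.40 against -0.01 over all tested genes. All 8 were higher in drug-loaded MNs than in HS, with a median of 0.46 against -0.02, and 5 of 8 were higher in 5-Fu injection than in HS, with a median of 0.27 against 0.02. These comparisons share the HS samples, so a low HS level enters each of them. Drug-loaded MNs exceeded 5-Fu injection in 6 of 8 genes (median 0.28) and NS in 6 of 8 (median 0.17), and 5-Fu injection exceeded NS in 4 of 8 (median -0.04). The 95% intervals spanned 0 for 7 of the 8 genes in each of the comparisons of HS with NS, of each treated group with HS, and of the treated groups with each other.

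**Figure D2:**
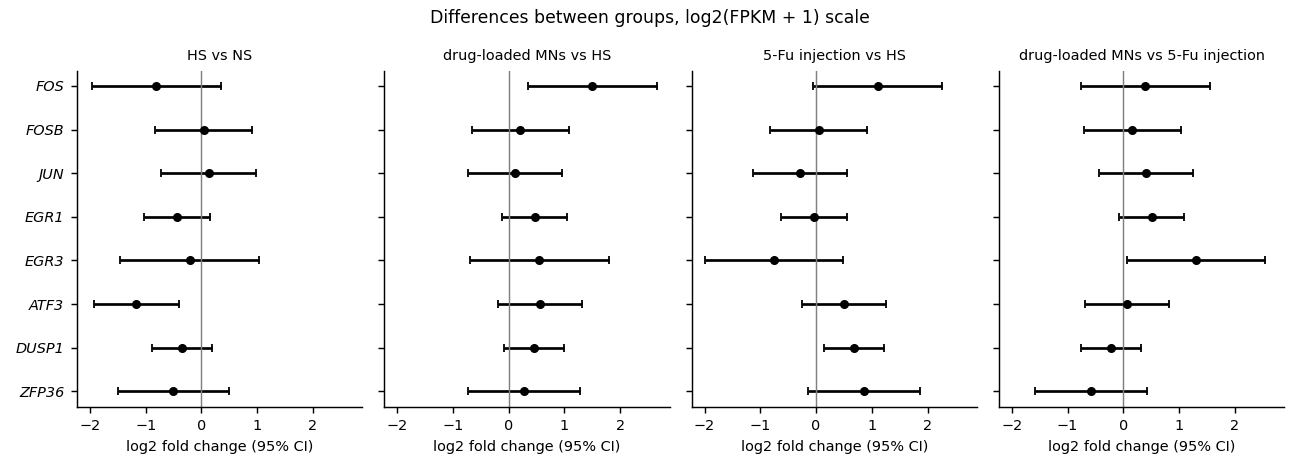
Log2 fold changes (horizontal axis, log2(FPKM + 1) scale) with 95% confidence intervals from limma for the 8 genes in 4 comparisons of 3 against 3 samples. Most intervals span 0, and the exceptions were ATF3 in HS against NS, FOS in drug-loaded MNs against HS, DUSP1 in 5-Fu injection against HS and EGR3 in drug-loaded MNs against 5-Fu injection, none of which passed adjustment.

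The division of each gene's variance was then examined, since a level set by the condition differs mainly between groups and a level set by the individual sample differs mainly within them. The share of the variance of log2(FPKM + 1) that lay between groups was 54.3% for ATF3, 45.3% for DUSP1, 44.9% for FOS and 39.3% for EGR1. It was 35.0% for EGR3, 26.6% for ZFP36, 10.7% for JUN and 4.78% for FOSB. Groups of 3 with equal means give 27.3% on average, so ZFP36, JUN and FOSB were at or below that level. A share above this average does not by itself show a difference between groups. The unadjusted p of the moderated F test was 0.0416 for ATF3, 0.0826 for FOS, 0.103 for DUSP1, 0.159 for EGR1 and 0.186 for EGR3. The median share over the 8 genes was 37.2%, compared with 41.6% over all genes tested.

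The spread between samples of a group was wide. The SD within groups had a median of 0.53 log2 units over the 8 genes and of 0.28 over all genes tested. EGR3 stood at percentile 94.3 of all tested genes in this SD, FOS at percentile 93.3 and ZFP36 at percentile 90.3. JUN stood at percentile 85.5, FOSB at 84.0, ATF3 at 80.1, EGR1 at 67.7 and DUSP1 at 61.7. All 8 genes were thus above the median gene in their spread within groups, while their share of variance between groups was on both sides of the median gene.

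**Figure D3:**
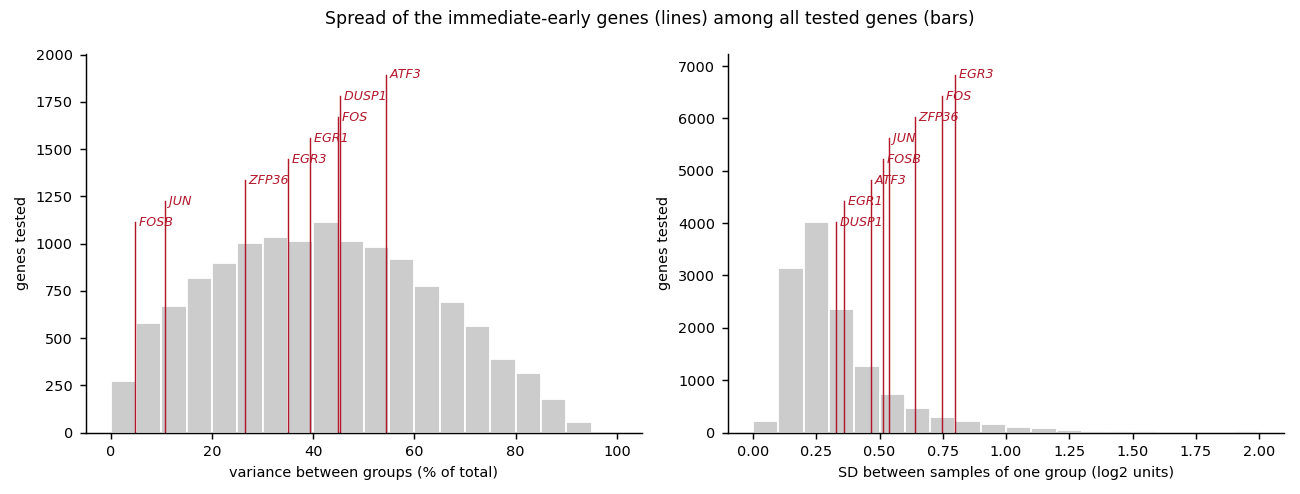
Left, share of variance between the 4 groups (horizontal axis, percent of total) and right, SD between samples of a group (horizontal axis, log2 units, values of 2 and above in the last bar), as the number of tested genes (bars) with the 8 immediate-early genes as lines. The lines lie on both sides of the median gene (41.6%) on the left, from 4.78% (FOSB) to 54.3% (ATF3), and toward the upper side on the right.

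The standing of each sample within its group was then counted. Replicate 3 of drug-loaded MNs was the highest of its group for 4 of the 8 genes (FOS, FOSB, JUN and EGR1), and for these 4 it was the highest of all 12 samples. Replicate 3 of 5-Fu injection was the highest of its group for 5 genes (FOS, FOSB, EGR1, DUSP1 and ZFP36), although FOSB was nearly equal in replicate 2. Replicate 2 of 5-Fu injection was highest for none and lowest for 4 genes (FOS, JUN, ATF3 and ZFP36). Untreated samples reached similar counts: NS replicate 3 was highest for 4 genes (FOSB, EGR1, EGR3 and ATF3) and lowest for the other 4, and HS replicate 3 was highest for 4 (FOS, EGR1, EGR3 and DUSP1).

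Averaged over the 8 genes, the deviation from the group mean was 0.40 log2 units in replicate 3 of drug-loaded MNs and 0.22 in replicate 3 of 5-Fu injection. In replicates 1 and 2 it was -0.14 and -0.26 for drug-loaded MNs, and 0.11 and -0.32 for 5-Fu injection. It was between -0.05 and 0.06 in the 6 samples of NS and HS. A mean near 0 covered genes that went opposite ways, as in HS replicate 1, with JUN and ZFP36 highest and EGR3, ATF3 and DUSP1 lowest of its group. Replicate 1 of 5-Fu injection likewise held EGR3 at 0.95 and ATF3 at 0.75 above its group mean, with FOS at -0.57 and EGR1 at -0.42. Even replicate 3 of 5-Fu injection, with 7 of 8 genes above the group mean, held EGR3 at -1.02.

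**Figure D4:**
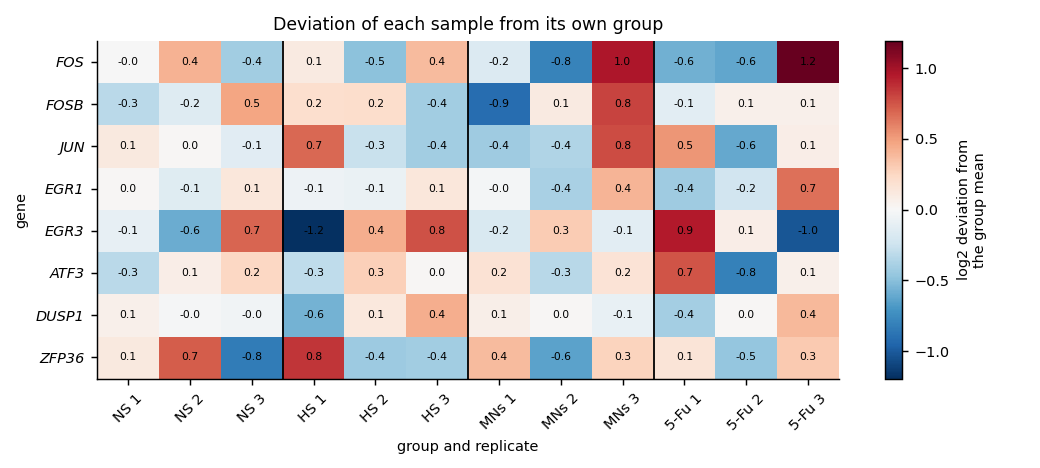
Deviation of each sample (columns, by group and replicate) from its own group mean, in log2 units, for each of the 8 genes (rows), with red above and blue below the mean. FOS deviated most in replicate 3 of drug-loaded MNs and of 5-Fu injection, whereas EGR3 was low in the latter and in HS replicate 1.

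The 8 genes did not vary as a single unit. Over the 12 samples, the 28 pairs of genes had a median Pearson r of 0.19, ranging from -0.71 to 0.71, with 20 pairs positive. After centring within groups the median was 0.11, ranging from -0.74 to 0.85, with 17 pairs positive. These correlations are descriptions over 12 samples that share their library and scaling.

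Markers of tissue composition and of stress were set beside the level of the 8 genes, taken as the mean over genes of log2(FPKM + 1) minus each gene's own mean. This level was 0.06 to 0.16 in NS and -0.33 to -0.24 in HS. It was 0.08, -0.04 and 0.61 in replicates 1 to 3 of drug-loaded MNs, and 0.07, -0.36 and 0.18 in those of 5-Fu injection. HS lay below NS and drug-loaded MNs, and replicate 2 of 5-Fu injection lay as low as HS.

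The keratinocyte markers found (KRT5, KRT1, KRT10 and TP63) moved in part alike. Their summed level was 2093 to 3622 FPKM in NS, 1266 to 1862 FPKM in HS, 3580, 3833 and 8424 FPKM in replicates 1 to 3 of drug-loaded MNs, and 5284, 2701 and 2981 FPKM in those of 5-Fu injection. KRT5, a keratin of the basal epidermis, was lower in HS than in NS by a log2 fold change of -1.34 (adjusted p = 0.042 in limma, 0.00371 to 0.128 over the alternatives). The lowest group and the highest sample were thus the same for these markers and for FOS, but not for most of the 8 genes. The highest sample was NS replicate 3 for EGR3 and ATF3, NS replicate 2 for ZFP36 and 5-Fu injection replicate 3 for DUSP1. The group mean was lowest in NS for FOSB and in 5-Fu injection for JUN and EGR3. In replicate 3 of 5-Fu injection the summed keratinocyte level was within the range of NS. KRT5 alone was at 888 FPKM there and at 951 FPKM in replicate 3 of drug-loaded MNs, compared with 207 to 612 FPKM in the other 10 samples. KRT5 was singled out after its values were seen, and the other markers did not follow it in replicate 3 of 5-Fu injection. KRT10 was at 770 FPKM and TP63 at 13.6 FPKM there, each below every other 5-Fu injection sample and every NS sample, and KRT1 was at 1309 FPKM, in the middle of its group. The part of the epidermal share in the levels of FOS, EGR1 and ATF3 was not tested.

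Beside its mitochondrial share, replicate 3 of 5-Fu injection differed in other ways. Its smooth muscle markers (2 of 4 found) summed to 733 FPKM compared with 327 and 379 FPKM in the other 5-Fu injection samples. Most of this was ACTA2, at 640 FPKM compared with 221 and 331 FPKM in replicates 1 and 2. MYH11 was at 92.25 FPKM in replicate 3, compared with 106.5 and 47.75 FPKM. The skeletal muscle markers of replicate 3 (6 of 7 found) summed to 181 FPKM compared with 112 and 60.7 FPKM. Most of that was DES, at 166 FPKM compared with 105 and 54.3 FPKM. ACTA1 (3.91 FPKM) and TNNT3 (6.31 FPKM) were low but above replicates 1 and 2, and CKM (4.62 FPKM) was below replicate 1 (4.73 FPKM). NS replicate 3 was higher still in both sums, at 1276 and 553 FPKM. Fibroblast markers summed to 4952 and 6631 FPKM in replicates 1 and 3 of 5-Fu injection and to 26630 FPKM in replicate 2. Replicate 2 had the lowest mean centred level of the 8 genes (-0.36). It was the lowest of the 12 samples for JUN and ATF3, but the second highest for DUSP1. The part of these differences in the FOS level was not tested.

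The heat shock list, chaperones and their regulator HSF1 (11 of 16 tested), had a mean centred level of 0.11 to 0.24 in NS. It was 0.23, -0.08 and -0.09 in replicates 1 to 3 of HS, -0.20 to -0.10 in drug-loaded MNs, and -0.47, 0.09 and 0.24 in replicates 1 to 3 of 5-Fu injection. None of the 11 was called in any comparison, including the most abundant, HSPB1 (mean 453 FPKM) and HSP90AB1 (mean 370 FPKM). The order of the groups differed from that of the immediate-early genes: drug-loaded MNs, not HS, lay lowest relative to NS, with 0 of 11 genes at a higher fitted level. A row described as HSPA1B was outside the 11. Its mean was 40.1 ± 2.44 FPKM (SD, n = 3) in NS and 23.0 ± 14.7 FPKM (SD, n = 3) in HS. The mean was 18.8 FPKM in drug-loaded MNs and 22.1 FPKM in 5-Fu injection. The moderated F test gave an unadjusted p of 0.047 and an adjusted p of 0.205 for this row.

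The hypoxia list (10 of 15 tested) had a mean centred level of -0.06 to 0.31 in NS, -0.26 to -0.04 in HS, -0.17 to 0.08 in drug-loaded MNs and -0.16 to 0.25 in 5-Fu injection, so that all groups overlapped. Of the 10 genes, 2 were called, both between HS and NS and in opposite directions, against 5% of all tested genes in that comparison. The unadjusted limma p was under 0.05 for 5 of the 10 there, against 23.4% of all genes. SLC2A1, the glucose transporter GLUT1, was lower in HS, with means of 65.0 FPKM in NS and 23.5 FPKM in HS and a log2 fold change of -1.38 (adjusted p = 0.014 in limma, 0.00988 to 0.0591 over the alternatives). P4HA1, a collagen prolyl hydroxylase subunit, was higher in HS, with means of 30.4 and 77.7 FPKM and a log2 fold change of 1.33 (adjusted p = 0.0198 in limma, 0.0177 to 0.0771 over the alternatives).

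**Figure D5:**
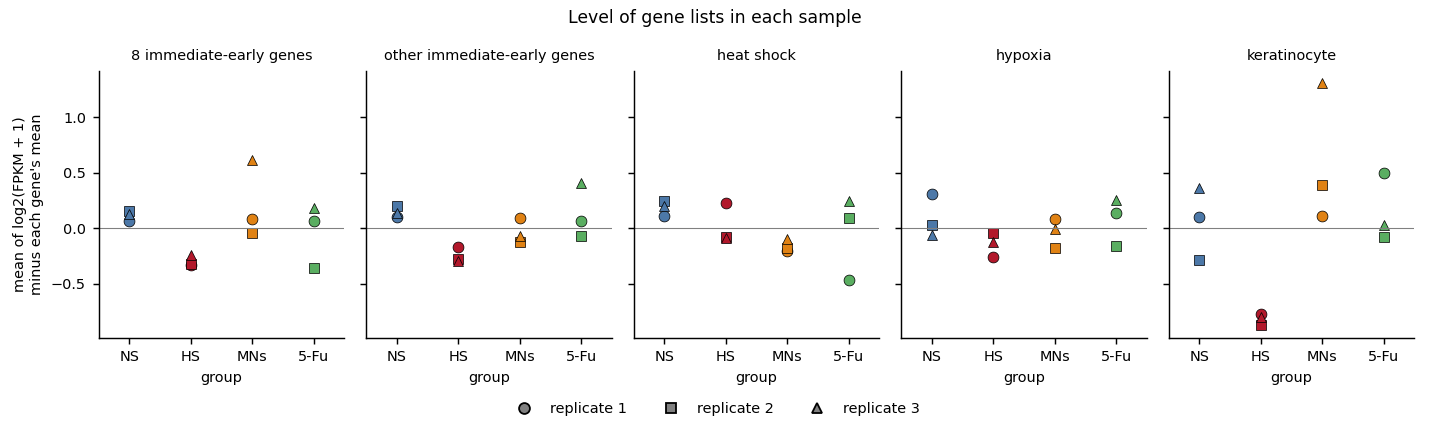
Mean over genes of log2(FPKM + 1) minus each gene's mean (vertical axis) in the 12 samples by group, for the 8 immediate-early genes, 28 other immediate-early genes, and heat shock, hypoxia and keratinocyte lists. The HS samples are the lowest for the other immediate-early genes and the keratinocyte markers, and are matched by replicate 2 of 5-Fu injection for the 8 genes, and replicate 3 of drug-loaded MNs is high for the 8 genes and the keratinocyte markers but not for the other immediate-early genes.

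Other genes of the immediate-early class were examined as a wider list, of which 28 of 41 could be tested. Between HS and NS, 0 were called up and 1 down, against 5% of all tested genes. At a higher fitted level were 6 of 28, against 48.6% of all genes, with a median log2 fold change of -0.42. Between drug-loaded MNs and HS none was called, with 20 of 28 higher (46.8% of all genes) and a median of 0.22. Between 5-Fu injection and HS, 1 was called up and 0 down, against 2.29% of all genes, with 23 of 28 higher (51.4% of all genes) and a median of 0.49. A single call among 28 genes is near the background share in both comparisons. No gene of the list was called in the other 3 comparisons. The mean centred level of the wider list was -0.30 to -0.16 in HS, below every sample of the other groups, compared with 0.11 to 0.20 in NS.

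Both called genes belong to the IκB family, which regulates NF-κB and which NF-κB itself induces. NFKBIZ, an atypical nuclear IκB protein, was at 11.3, 19.9 and 9.78 FPKM in NS and at 6.65, 6.20 and 5.11 FPKM in HS, with no overlap. Its log2 fold change was -1.01 (SE 0.27, adjusted p = 0.0475 in limma), and over the alternative settings the adjusted p ranged from 0.0381 to 0.145, so this call stood at the threshold.

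NFKBIA, the IκBα protein that holds NF-κB in the cytoplasm, was at 74.9, 110 and 77.4 FPKM in NS and at 49.2, 47.3 and 47.7 FPKM in HS. It was at 58.4, 48.8 and 59.6 FPKM in drug-loaded MNs and at 108, 137 and 115 FPKM in 5-Fu injection. Every 5-Fu injection sample exceeded every HS and drug-loaded MNs sample, and here replicate 2 of 5-Fu injection was the highest and not the lowest. The lymphocyte markers found (4 of 7) had a higher sum in all 5-Fu injection samples than in HS. It was 74.1, 17.6 and 13.6 FPKM compared with 7.19 to 7.56 FPKM. In replicates 2 and 3 of 5-Fu injection most of this sum was PTPRC, at 13.0 and 7.23 FPKM, and MS4A1 was at 0 FPKM in replicate 2. The sum in these samples thus rested mainly on 1 gene and does not by itself show more lymphocytes. CD2 and CD79B were also higher in every 5-Fu injection sample than in HS, CD79B on only 12 reads in replicate 2. The lymphocyte markers summed to 5.74 to 29.3 FPKM in NS and 6.89 to 11.0 FPKM in drug-loaded MNs. The macrophage markers summed to 285, 336 and 144 FPKM in replicates 1 to 3 of 5-Fu injection, compared with 182 to 209 FPKM in HS. The part of either marker list in the NFKBIA level was not tested. The log2 fold change of 5-Fu injection against HS was 1.30 (SE 0.16, adjusted p = 0.0134 in limma), and adjusted p ranged from 0.00583 to 0.0948 over the alternatives, being above 0.05 when only these groups entered limma and when any 1 HS sample was left out. Between HS and NS its log2 fold change was -0.83 (adjusted p = 0.0131 in limma), short of the fold required for a call. The share of its variance between groups was 91.4%, and the F test over the 4 groups gave an adjusted p of 0.00725 in limma.

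In replicate 3 of 5-Fu injection, NR4A1, an orphan nuclear receptor of the immediate-early class, was at 36.6 FPKM compared with 4.05 to 14.6 FPKM in the other 11 samples. FOSL1, an AP-1 subunit, was at 6.49 FPKM there and at 1.05 to 2.74 FPKM elsewhere. These genes were singled out after their values were seen. High values in this sample were therefore not limited to the 8 genes, whereas in replicate 3 of drug-loaded MNs the wider list stood at -0.07, within the range of its group.

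Upstream of these genes, 14 of 19 kinases, receptors and transcription factors could be tested, including SRF, ELK1, CREB1 and the ERK and JNK kinases. None was called in any comparison. The most abundant, MAP2K1 and MAPKAPK2, had means of 90.5 and 84.6 FPKM. In HS against NS, 11 of 14 had a higher fitted level (48.6% of all genes), with a median log2 fold change of 0.08. In 5-Fu injection against HS, 2 of 14 had a higher fitted level (51.4% of all genes), with a median of -0.29. FOS, EGR1 and ATF3 had lower fitted levels in HS than in NS. These values are mRNA levels and do not measure phosphorylation.

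The genes whose level was most like that of the 8 genes over the 12 samples were FBXO8 (r = 0.88), SLC25A26 (0.863), DNAJC12 (0.862), GCSH (0.861), RAB25 (0.859) and SQLE (0.858), by Pearson r with the members' mean centred level. After centring within groups they were F11R (0.951), BTF3 (0.921), HSBP1 (0.913), C1GALT1C1 (0.909), CITED4 (0.909) and PLAAT3 (0.906). None of the 12 belongs to the immediate-early class. These are the highest values among 13287 genes over 12 samples that share their library and scaling, and they are given as a description.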

How the data were processed

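Bulk RNA-seq of 12 samples, grouped by their labels, was analysed. The authors selected mRNA on poly-T beads, removed low quality reads and deposited 1 table of FPKM values by Ensembl identifier. The aligner, counter and genome build are not given in the sources used here. Multiplied by gene length, 99.99% to 100% of the values of a sample were whole multiples of a step (tolerance 0.05 reads), which gave the reads on genes. On log2(FPKM + 1), the 4 groups were compared in 1 fit with a mean-variance trend, using limma 3.58.1 (R 4.3.3). The fit covered the 13287 genes whose FPKM averaged at least 1. Fold changes on this scale understate those of low genes such as FOSB. p was adjusted by the Benjamini-Hochberg method over all tested genes, and a call also needed a log2 fold change beyond 1 in either direction. The study's DESeq2 test was not used, since the deposited values are not counts. The procedure was tested on simulated data.

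The immediate-early genes and all lists were chosen with earlier results of these data known. Named genes were the 10 listed genes, called genes of the other immediate-early and hypoxia lists, the 2 most abundant genes of the heat shock and signalling lists, where none was called, and the 6 genes most alike by each measure. NR4A1, FOSL1 and KRT5 were named after their values had been seen. Cell type markers are given mainly as summed levels. Of the endothelial, cartilage, macrophage, lymphocyte, red blood cell and muscle lists, no gene was called in any comparison. IER2 and HSPA1B were matched by their descriptions, and HSPA1B was named after its values had been seen. Alternatives covered the pseudocount, the filter, scaling, the samples in the fit, the trend, the replicate block, limma voom on the reads counted back, and each replicate left out in turn. Leaving out both replicate 3 samples of the treated groups and adding IER2 were chosen after the data had been seen.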

Additional observations from a re-analysis of the deposited data

How the results depend on the processing

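Members called stayed at 0 under the alternatives, with IER2 added or with both replicate 3 samples of the treated groups left out, except in HS vs NS. There it was 1 with FPKM rescaled to the same total and with only the groups compared in the fit, and 0 to 1 when a replicate was left out (1 without 5-Fu injection replicate 1 or 2). Of 512 recomputed member fold changes, 483 kept their direction and their side of the threshold, and 27 reversed, with a size of at most 0.39. FOSB, drug-loaded MNs vs 5-Fu injection, reversed to -0.033 with a pseudocount of 0.1 and to -0.17 with voom. ATF3 reversed to -0.039 in that comparison with quantile normalization, and FOSB, 5-Fu injection vs HS, to -0.045 after rescaling. The cause was not tested.

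Leaving out 1 replicate gave these ranges where a sign turned. In HS vs NS they were -0.12 to 0.28 for FOSB, -0.21 to 0.33 for JUN and -0.59 to 0.39 for EGR3. In drug-loaded MNs vs HS they were -0.20 to 0.66 for FOSB, -0.27 to 0.46 for JUN and -0.048 to 0.93 for EGR3. In 5-Fu injection vs HS they were -0.16 to 0.15 for FOSB, -0.56 to 0.05 for JUN and -0.37 to 0.17 for EGR1. In drug-loaded MNs vs 5-Fu injection they were -0.088 to 0.99 for FOS, -0.24 to 0.61 for FOSB and -0.34 to 0.44 for ATF3. The lowest FOS and FOSB values there, and the lowest FOSB and JUN values of drug-loaded MNs vs HS, were without drug-loaded MNs replicate 3.

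Counts of all genes called varied more. For 5-Fu injection vs NS, 1 gene became 2 with the pseudocount of 0.1, 2 without a filter, 3 with a mean FPKM of at least 5, 3 with quantile normalization, 10 after rescaling, and 0 with only these groups or without the trend. For drug-loaded MNs vs HS, 1 became 2 without a filter or without the trend, 37 with only these groups and 0 with voom. For 5-Fu injection vs HS, 304 became 93 without a filter, 515 after rescaling, 0 with only these groups and 585 by adjusted p alone. Without a filter, drug-loaded MNs vs 5-Fu injection gave 1, drug-loaded MNs vs NS 51 and the F test 287. Leaving out 1 replicate gave 382 to 749 for HS vs NS, 0 to 2 for drug-loaded MNs vs HS, 0 to 803 for 5-Fu injection vs HS, 0 to 12 for drug-loaded MNs vs 5-Fu injection, 0 to 176 for drug-loaded MNs vs NS, 0 to 20 for 5-Fu injection vs NS and 115 to 901 for the F test, the highest being without 5-Fu injection replicate 2 in 4 of these.

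Replicate numbers are shared across groups, but the rabbits differ, and no comparison had all 3 pair correlations over 0.1. With the replicate block, calls were 0 for drug-loaded MNs vs HS, 99 for 5-Fu injection vs HS, 23 for drug-loaded MNs vs NS, 0 for 5-Fu injection vs NS and 229 for the F test, and members called stayed at 0. Counting error is largest for FOSB, with 4 to 65 reads per sample.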
